A study of Danio rerio with 6 samples.

Results

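Splicing factor genes were chosen by symbol: every row of the deposited table beginning with snrp, srsf, hnrnp, sf3a, sf3b, mbnl or celf, or with rbm and a digit. These were 108 of 25089 rows, carrying 106 distinct symbols. The libraries came from zebrafish of a Gata4:GFP strain, whose green fluorescent reporter is named for gata4, a transcription factor gene of the heart. Cells called cardiomyocytes in the sample titles were sorted from the ventricle apex by fluorescence, after injury tissue had been cleared away, and their RNA was sequenced. There were 3 libraries from uninjured hearts and 3 from hearts regenerating 5 days after the apex was cut off, and no other allele or agent is named. The age of the fish and the number of animals behind each library are not given, so the spread behind each p-value is that of these libraries and may be technical.

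Introns are removed from new transcripts by the spliceosome, which is built from small nuclear ribonucleoprotein particles (snRNPs). The Sm proteins form a ring around the RNA of most of these particles, and the SF3A and SF3B complexes belong to the U2 particle, which marks the branch point of the intron. SR proteins and heterogeneous nuclear ribonucleoproteins (hnRNPs) bind transcripts and bias which exons are kept. Muscleblind (mbnl), RBM20, RBM24 and some CELF proteins shift exon choice in heart and skeletal muscle. There mbnl and such CELF proteins have opposed effects during development. The values here are levels of whole genes, so exon use was not measured.

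Levels are given as scaled FPKM, which is the number of fragments corrected for gene length and library total, divided by a factor per library that sets the median of genes expressed in all libraries equal. Transcripts of the 13 mitochondrially encoded genes took 34.5% ± 11.1 (SD, n = 3) of summed FPKM in uninjured and 14.0% ± 4.36 (SD, n = 3) in regenerating libraries (exact permutation p = 0.1, two-sided, the smallest that 3 against 3 allow). Without scaling the median gene was higher in regenerating libraries by 0.51 on the log2 scale, and with it by 0.05. Between 11294 and 12207 genes exceeded 1 FPKM in uninjured libraries and between 13466 and 13723 in regenerating ones. Read counts per library are not known. Beyond a mean normalised count per gene over all libraries, the spread between libraries is the only measure of precision.

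The sorted cells expressed cardiomyocyte genes, and the 13 markers of that type summed to 7473 to 14346 scaled FPKM in uninjured and 4965 to 9083 in regenerating libraries. Of the 13, 4 were lower and 0 higher in limma (adjusted p below 0.05), with a median log2 change of -0.83. Of all genes tested, 3.94% were lower and 7.5% higher by the same rule. Several marker lists of other cell types moved with the groups. The 10 epicardial markers summed to 837 to 1365 in uninjured and 2911 to 4220 in regenerating libraries, with 7 of 10 higher by the test used throughout. The 13 fibroblast markers summed to 489 to 603 and 2299 to 2746, with 11 of 13 higher. The 12 endothelial markers summed to 163 to 195 and 260 to 401, with 5 of 12 higher. The 15 mitosis genes summed to 16.3 to 26.3 and 90.3 to 128, with 11 of the 14 tested higher. Of those 14, 7 had no uninjured library above 1 FPKM and passed the filter through the regenerating libraries alone, which favours higher calls. The same held for 1 of the 13 fibroblast markers. The 7 erythrocyte markers summed to 14.0 to 449 and 372 to 1062, with 3 of 7 higher, and 1 of the 7 had no uninjured library above 1 FPKM. The 10 leukocyte markers summed to 98.7 to 115 and 37.6 to 126, with none of the 7 tested passing in limma (1 higher and 1 lower at an unadjusted p below 0.05). At that unadjusted level 2215 of all 13319 genes tested were higher and 1346 lower. The deposited values hold a floor, so a marker with no reads is not listed at 0. The part of these markers in the results was not tested, and fewer cells of a type cannot be told apart from less RNA per cell in such samples.

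Of the 108 splicing factor rows, 99 exceeded 1 FPKM in at least 3 libraries and were tested, none of them through the regenerating libraries alone. Relative to the median gene, 5 rose, 1 fell and 93 did not pass (limma, adjusted p below 0.05). Over all 13319 genes tested, 7.5% were higher and 3.94% lower by the same rule. The 6.06% of splicing factor genes that changed therefore lay below the 11.4% of all genes. The median log2 change of the 99 was 0.04, against 0.05 for all genes tested. The changes were unevenly spread over the roles: 4 of the 5 rises were in the Sm ring, the fifth was an hnRNP gene, and the fall was in a muscle splicing regulator. The SR proteins and the other RBM proteins had none. Uninjured and regenerating values did not overlap in 20 members that were higher and 12 that were lower, where 19.1% of all genes tested were wholly higher and 13.7% wholly lower. Among the 12, and among the 99 tested, was rbm33b, whose mean normalised count is 0 in the authors' deposited table.

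**Figure D1:**
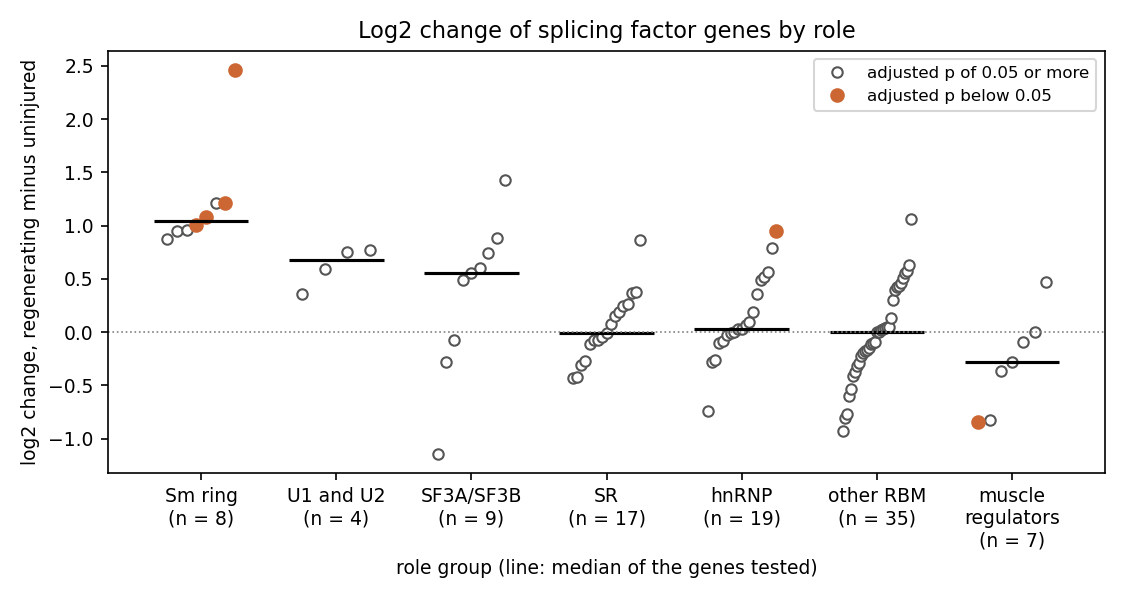
Each point is 1 of the 99 splicing factor genes tested, placed by role, with the log2 change of scaled FPKM on the vertical axis and a line at the median of the role. All 8 Sm ring genes lie above 0.8, while the 17 SR, 19 hnRNP and 35 other RBM genes are spread around 0 and 6 of 7 muscle regulators lie at or below 0.

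The count depends on the scaling and on single libraries. Without scaling, 28 members were higher and none lower, where 23.7% of all genes were higher and 1.52% lower. With upper-quartile scaling 3 were higher and 3 lower, where 860 of all 13319 genes were higher and 627 lower. Without uninjured replicate 1 there were 8 higher members, without uninjured replicate 2 there were 2, and without regenerating replicate 3 there were 2. Over all 13319 genes the same fits gave 1031, 713 and 524 higher calls. None was higher without regenerating replicate 1 or without regenerating replicate 2, and the number of higher calls over all genes then fell from 999 to 367 and 542.

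The Sm ring genes moved the most. All 8 rows were above 0, with a median log2 change of 1.04, and 7 of 8 had regenerating values that lay wholly above the uninjured ones, which held for 19.1% of all genes tested. Their levels summed to 77.6 to 129 scaled FPKM in uninjured and 219 to 270 in regenerating libraries. Under all 4 scalings each of the 8 stayed above 0 and above the median gene. A scaling moves all genes by a similar amount, so the place relative to the median gene could hardly change.

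The gene snrpg (ENSDARG00000099667), which encodes the Sm G protein, measured 2.86, 3.12 and 13.5 scaled FPKM in the uninjured libraries and 36.9, 33.8 and 28.2 in the regenerating ones. The groups were far apart, with uninjured replicate 3 well above the other uninjured libraries. It rose by 2.46 on the log2 scale (SE 0.46, limma adjusted p = 0.0104), and lost its call with no filter on low values and without regenerating replicate 1 or 2, with a highest limma adjusted p of 0.0575 over all 16 alternatives. The authors' deposited table gives snrpg a log2 fold change of 2.05 with an adjusted p of 0.00278.

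The gene snrpe (ENSDARG00000033175), for the Sm E protein, was the most abundant of the ring. It measured 50.3, 28.7 and 38.4 scaled FPKM in uninjured libraries and 91.3, 109 and 72.8 in regenerating ones. Every regenerating library stood above every uninjured one. The log2 change was 1.21 (SE 0.27, limma adjusted p = 0.0220), and in the authors' deposited table it was 1.14 with an adjusted p of 0.0144. The limma call was lost in 5 of 16 alternatives, among them those without uninjured replicate 2 or 3 and without regenerating replicate 1 or 2.

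The gene snrpf (ENSDARG00000105037), whose product sits between Sm D2 and Sm E in the ring, measured 20.9, 21.7 and 28.9 scaled FPKM in uninjured and 48.9, 53.6 and 43.2 in regenerating libraries. The groups did not overlap and the libraries within each were close. It rose by 1.01 (SE 0.24, limma adjusted p = 0.0250). The Sm D2 gene snrpd2 (ENSDARG00000040440) measured 12.6, 12.0 and 22.6 in uninjured and 37.1, 29.4 and 33.2 in regenerating libraries, with no overlap. It rose by 1.08 (SE 0.29, limma adjusted p = 0.0386). The authors' deposited table gives adjusted p-values of 0.0860 for snrpf and 0.113 for snrpd2, so neither passes there. In limma snrpf lost its call in 6 of 16 alternatives, which were the replicate block, no filter on low values, and the fits without uninjured replicate 2 or any 1 regenerating library. The call of snrpd2 was lost in 7 of 16, which were upper-quartile scaling, no filter, and every fit leaving out a library other than uninjured replicate 3.

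**Figure D2:**
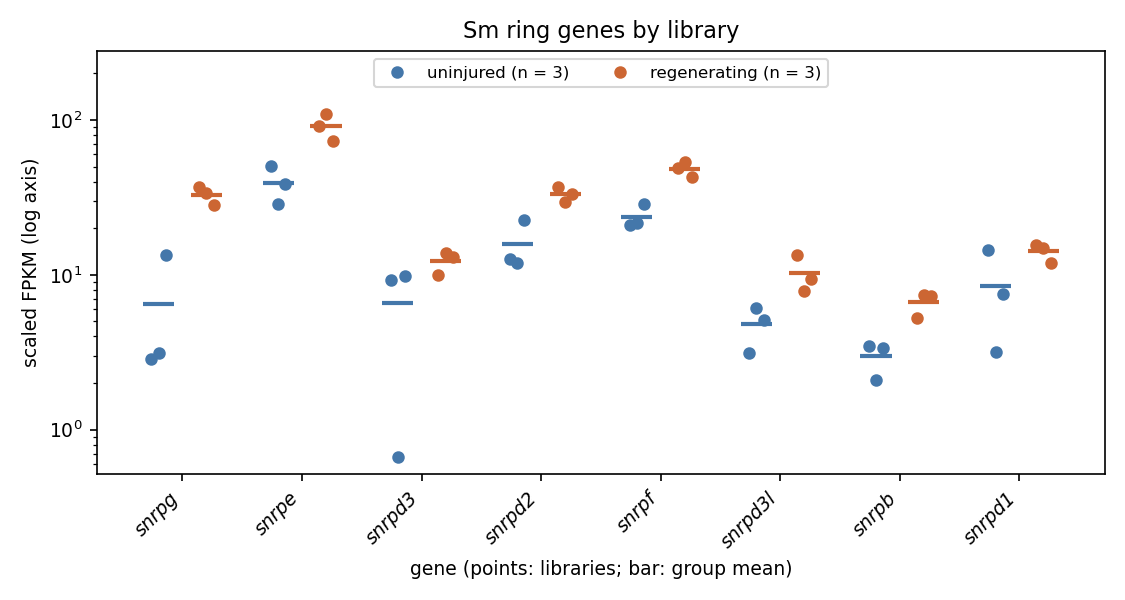
Scaled FPKM (log axis) of the 8 Sm ring genes in each of 3 uninjured and 3 regenerating libraries, with bars at group means, ordered by log2 change. The regenerating points of snrpg (28.2 to 36.9) lie above all its uninjured points (2.86 to 13.5), and snrpd1 is the one gene whose groups overlap.

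The other 4 ring genes did not pass. The Sm B gene snrpb went from 2.98 ± 0.776 to 6.67 ± 1.19 scaled FPKM (SD, n = 3) with no overlap, and differed by 0.95 on the log2 scale (SE 0.28, limma adjusted p = 0.0585). The rows snrpd3 and snrpd3l, both for Sm D3, had log2 changes of 1.21 (SE 0.62) and 0.96 (SE 0.31). They are related sequences that may share reads, so their separate levels are uncertain. In uninjured replicate 2, snrpd3 was at 0.667 scaled FPKM against 9.27 and 9.79 in the other uninjured libraries, and its log2 change was 0.32 without that library. The Sm D1 gene snrpd1 measured 14.5, 3.19 and 7.54 in uninjured and 15.6, 14.9 and 12.0 in regenerating libraries, which overlap. Without uninjured replicate 2 the change of snrpd1 was 0.39, against 0.88 with it.

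In regenerating libraries the ring genes ran in the order snrpe at 91.0 ± 17.95 scaled FPKM, snrpf at 48.5 ± 5.22, snrpd2 at 33.2 ± 3.82, snrpg at 33.0 ± 4.43, snrpd1 at 14.2 ± 1.94, snrpd3 at 12.3 ± 2.03, snrpd3l at 10.2 ± 2.85 and snrpb at 6.67 ± 1.19 (SD, n = 3). The neighbours snrpd2 and snrpg differed by less than their SDs, as did snrpd1 and snrpd3, and the means of snrpd3 and snrpd3l differed by less than the SD of snrpd3l. In uninjured libraries snrpg, at 6.48 ± 6.05, had a lower mean than snrpe, snrpf, snrpd2, snrpd1 and snrpd3. It lay within its SD of snrpd1 and of snrpd3, the latter at 6.57. Mean normalised counts of the ring genes in the authors' deposited table ran from 25.6 for snrpd3l to 176 for snrpe, with 59.0 for snrpg. The ring genes are short, from 561 to 963 nt. Of all 2125 genes under 1000 nt that were tested, 9.27% were higher, against 7.5% of all genes, and their median log2 change was 0.04. The part of gene length in the ring values was not tested.

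The 4 rows for proteins particular to the U1 and U2 particles had log2 changes of 0.36 to 0.77, all above 0. None passed in limma (1 higher and 0 lower at an unadjusted p below 0.05, where 2215 of all 13319 genes were higher and 1346 lower). The U2 gene snrpa1 measured 7.35, 4.54 and 5.34 scaled FPKM in uninjured and 9.06, 11.1 and 10.5 in regenerating libraries, without overlap (log2 change 0.75, SE 0.27, limma adjusted p = 0.0999). The U1 gene snrpa, the most abundant of the 4, measured 9.44 ± 2.47 and 12.2 ± 1.29 (SD, n = 3), with overlapping groups. The U1 gene snrpc and the U2 gene snrpb2 had changes of 0.77 (SE 0.46) and 0.60 (SE 0.37), and their groups overlapped too. Without uninjured replicate 2 these changes were 0.25 for snrpc and 0.30 for snrpb2. Without uninjured replicate 3 that of snrpc was 1.21. The change of snrpb2 was 0.95 without uninjured replicate 1 and 0.38 without regenerating replicate 2, and that of snrpa was 0.55 without uninjured replicate 2.

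Within SF3A and SF3B the log2 changes had both signs, with 6 above 0 and 3 below. None of the 9 passed in limma (3 higher and 1 lower at an unadjusted p below 0.05). By that unadjusted rule 2215 of all 13319 genes tested were higher and 1346 lower. Groups did not overlap in 1 that was lower and 6 that were higher. Of all genes tested, 13.7% were wholly lower and 19.1% wholly higher. The SF3A gene sf3a3 (ENSDARG00000100114) measured 4.29, 2.69 and 2.89 scaled FPKM in uninjured and 6.82, 7.25 and 6.36 in regenerating libraries (log2 change 0.88, SE 0.27, limma adjusted p = 0.0625). The other 5 wholly higher genes were sf3b5 at 1.43, sf3b4 at 0.74, sf3a2 at 0.60, sf3b2 at 0.56 and sf3b3 at 0.49 in log2 change. Mean normalised counts of those 5 in the authors' deposited table ran from 22.5 for sf3a2 to 175 for sf3b3. The gene sf3b5 was low in uninjured replicate 2, at 1.66 scaled FPKM against 10.3 and 6.26, and its change was 0.84 without that library.

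The gene sf3b1 (ENSDARG00000056138), whose product grips the branch point of the intron and is the scaffold of SF3B, had the lowest log2 change of all 99 members. It measured 34.9, 83.7 and 63.8 scaled FPKM in uninjured libraries and 23.2, 31.3 and 22.6 in regenerating ones. The groups did not overlap, although uninjured replicate 1 came close to regenerating replicate 2. The log2 change was -1.14 (SE 0.33, limma adjusted p = 0.0524), just short of the threshold, and -0.54 without scaling. The adjusted p ran from 0.0109 to 0.332 over the alternatives. The authors' deposited table gives sf3b1 a log2 fold change of -1.06 with an adjusted p of 0.00251, which passes. It was the most abundant of the 9 genes in uninjured libraries, at 60.8 ± 24.5, and in regenerating ones, at 25.7 ± 4.88, it was below sf3b6, at 30.4 ± 2.21 (SD, n = 3), by less than its SD. The genes sf3b6 and sf3a1 had log2 changes of -0.28 (SE 0.28) and -0.07 (SE 0.27), which were above 0 without scaling.

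**Figure D3:**
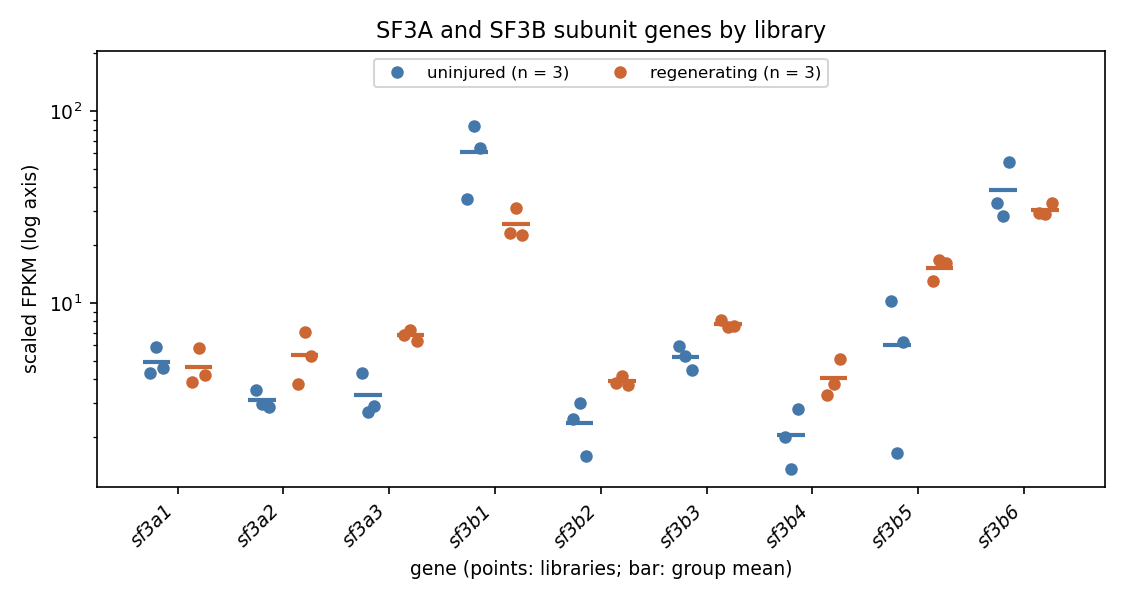
Scaled FPKM (log axis) of the 9 SF3A and SF3B genes in 3 uninjured and 3 regenerating libraries, with bars at group means. The regenerating points of sf3b1 (22.6 to 31.3) lie below its uninjured points (34.9 to 83.7), while sf3a2, sf3a3 and sf3b2 to sf3b5 have them above.

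Across the 21 core snRNP and SF3 rows, 4 rose (19.0%), none fell and 17 did not pass, where 7.5% of all genes tested were higher and 3.94% lower. The 4 were all Sm ring genes, and no U1, U2 or SF3 row passed. The median log2 change of the 21 was 0.77. The same 21 had 17 higher rows without scaling, where 23.7% of all genes were higher. In every one of the 4 scalings 18 of 21 lay above the median gene, and the median of the 21 stood 0.72 to 0.79 above that of all genes. That sameness was nearly fixed in advance, because a scaling moves all genes by a similar amount. With every library kept, 999 of all 13319 genes were higher. Leaving out uninjured replicate 1 gave 6 higher core rows, where 1031 of all genes were higher. Leaving out uninjured replicate 2 gave 1 (713 of all genes), and leaving out uninjured replicate 3 gave 3 (765). The count was 2 with regenerating replicate 3 dropped (524 of all genes). It was 0 with regenerating replicate 1 dropped (367) and 0 with regenerating replicate 2 dropped (542).

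The muscle splicing regulators were 12 rows, of which 7 were tested, and no row carries the symbol rbm20, which was not analysed here. The group was set by symbol and takes every matching celf row, although only some CELF proteins act in muscle. Its median is therefore not that of muscle regulators alone. Of the 7, 1 fell (14.3%), none rose and 6 did not pass, where 3.94% of all genes tested were lower and 7.5% higher. The median log2 change of the 7 was -0.28, which is the value of the low gene celf3a, against 0.77 for the core rows. Without scaling the median of the 7 was 0.22, where that of all genes was 0.51. Only 1 or 2 of the 7 lay above the median gene in any of the 4 scalings, a place that scaling can hardly alter. The difference between the core rows and the muscle regulators as sets was not tested. The 12 rows together summed to 124 to 144 scaled FPKM in uninjured and 93.1 to 126 in regenerating libraries, so the groups overlapped.

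The gene mbnl3 (ENSDARG00000016085), a muscleblind family member, measured 10.1, 9.89 and 10.7 scaled FPKM in uninjured and 5.78, 4.98 and 4.99 in regenerating libraries. Both groups were tight and far from each other. It fell by 0.85 on the log2 scale (SE 0.24, limma adjusted p = 0.0491). The call was at the edge of the threshold: it was lost in 13 of 16 alternatives, including each of the 6 that leave out a library, with adjusted p-values from 0.0363 to 0.466. Without scaling the change was -0.31. In the authors' deposited table mbnl3 has a log2 fold change of -1.35 and an adjusted p of 2.74e-06. The row is 8866 nt long. Among the 702 tested genes of at least 6000 nt the median log2 change was -0.15 and 6.84% were lower, against 3.94% of all genes. The part of gene length in the value of mbnl3 was not tested.

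The gene rbm24a (ENSDARG00000102995), whose product promotes inclusion of muscle exons and is needed for heart development in zebrafish, measured 20.1, 31.3 and 24.3 scaled FPKM in uninjured and 9.73, 13.6 and 18.6 in regenerating libraries. The groups did not overlap, with regenerating replicate 3 close to uninjured replicate 1. The log2 change was -0.83 (SE 0.29, limma adjusted p = 0.104) and did not pass, and it was -0.25 without scaling. The authors' deposited table gives -1.03 with an adjusted p of 0.0195, which passes. In the same libraries the cardiomyocyte markers had a median log2 change of -0.83 and 4 of 13 lower, where 3.94% of all genes tested were lower. The part of these markers in the value of rbm24a was not tested. Its relative rbm24b did not pass the filter, at 0.445 ± 0.0410 and 0.446 ± 0.126 (SD, n = 3).

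The most abundant regulator was mbnl2, with 59.6, 30.0 and 59.1 scaled FPKM in uninjured and 36.7, 59.3 and 48.5 in regenerating libraries. The groups covered the same range (log2 change 0.00, SE 0.32). The gene mbnl1 measured 19.2 ± 2.47 and 18.1 ± 3.19 (SD, n = 3), also overlapping, with a log2 change of -0.09 (SE 0.24) that was 0.49 without scaling.

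Among the CELF genes, which bind GU-rich sequence, celf2 was the one regulator of the 7 above 0 with median-ratio scaling. It measured 6.002, 4.53 and 4.41 scaled FPKM in uninjured and 7.15, 6.79 and 7.80 in regenerating libraries, without overlap (log2 change 0.47, SE 0.25, limma adjusted p = 0.268). The gene celf1 measured 17.02, 24.5 and 17.6 in uninjured and 13.9, 14.9 and 16.1 in regenerating libraries, also without overlap, and its log2 change of -0.36 (SE 0.24) was 0.22 without scaling. The gene celf3a was low, at 2.35 ± 1.38 and 1.76 ± 1.13 (SD, n = 3), with overlapping groups. The rows celf3b, celf4, celf5a and celf5b did not pass the filter, and celf5b had a mean normalised count of 0 in the authors' deposited table.

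**Figure D4:**
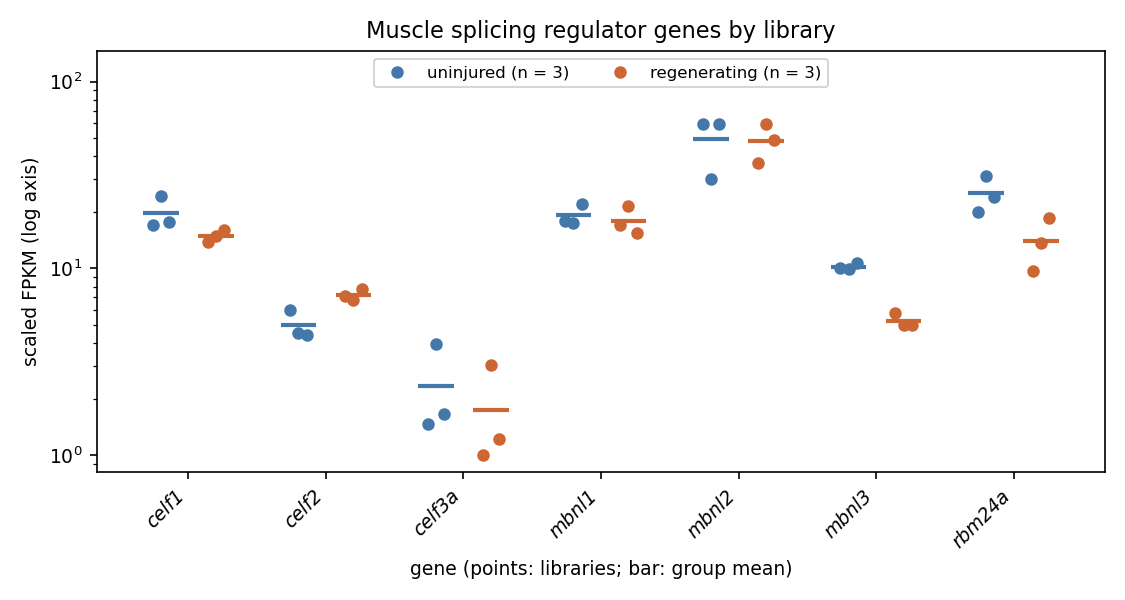
Scaled FPKM (log axis) of the 7 muscle splicing regulator genes tested, in 3 uninjured and 3 regenerating libraries, with bars at group means. The regenerating points of mbnl3 (4.98 to 5.78) lie below its uninjured points (9.89 to 10.7), whereas those of mbnl1 and mbnl2 overlap.

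SR proteins, which carry domains rich in arginine and serine and mostly promote exon inclusion, stayed near the median gene. None of 17 rows tested passed in limma, and none passed in the authors' deposited table. At an unadjusted p below 0.05 in limma 1 was higher and 0 lower, where 2215 of all 13319 genes were higher and 1346 lower. The median log2 change was -0.01. The gene with the smallest p was srsf9, at 1.96, 2.41 and 0.834 scaled FPKM in uninjured and 3.998, 3.67 and 3.76 in regenerating libraries (log2 change 0.86, SE 0.30, limma adjusted p = 0.101). Its groups did not overlap. The most abundant was srsf5a, at 87.6 ± 33.5 and 63.4 ± 12.9 (SD, n = 3), and its relative srsf5b measured 55.7, 50.4 and 34.2 in uninjured and 33.5, 33.4 and 34.1 in regenerating libraries. The regenerating values of srsf5b were close together and just below the lowest uninjured one (log2 change -0.43, SE 0.25, limma adjusted p = 0.299). Both genes were above 0 without scaling, at 0.19 and 0.16.

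Of 19 hnRNP rows tested, 1 rose (5.26%) and none fell, where 7.5% of all genes tested were higher and 3.94% lower. The median log2 change of the 19 was 0.03. The gene hnrnpa1a (ENSDARG00000011020), for a protein that represses splice sites and packages new transcripts, measured 9.73, 8.99 and 6.23 scaled FPKM in uninjured and 16.9, 16.5 and 17.04 in regenerating libraries. The regenerating values were nearly equal and all above the uninjured ones. It rose by 0.95 (SE 0.25, limma adjusted p = 0.0386) but lost its call in 8 of 16 alternatives, and in the authors' deposited table its adjusted p is 0.0942. Its paralog hnrnpa1b went the other way by less than its error, from 90.6 ± 9.79 to 84.5 ± 11.0 (SD, n = 3; log2 change -0.10, SE 0.22, and 0.51 without scaling). Reads may be shared between the pair, and hnrnpa1b was the more abundant in every library.

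The lowest log2 change of the hnRNP rows was in hnrnpk, for a protein that binds C-rich sequence, which measured 23.8, 26.2 and 39.8 scaled FPKM in uninjured and 15.7, 21.0 and 15.0 in regenerating libraries. No overlap was seen between groups, but the change did not pass (log2 change -0.74, SE 0.27, limma adjusted p = 0.116). The most abundant hnRNP row was hnrnpaba, at 106 ± 20.2 and 135 ± 13.1 (SD, n = 3), with overlapping groups and a log2 change of 0.36 (SE 0.23). One of the 2 rows named hnrnpa0l carries a different symbol, gzf1, in the reference table of identifiers, and it did not pass the filter, nor did hnrnpa3, srsf7b or rbm46.

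The other RBM genes were 36 rows, of which 35 were tested. None passed in limma, and the median log2 change was 0.00. At an unadjusted p below 0.05 in limma 1 was higher and 2 lower, where 2215 of all 13319 genes were higher and 1346 lower. The gene rbm10 (ENSDARG00000077400), a spliceosome protein that in human cells favours exon skipping, measured 4.45, 5.76 and 3.94 scaled FPKM in uninjured and 2.33, 2.20 and 1.49 in regenerating libraries. The groups did not overlap. Its log2 change was -0.93 (SE 0.28, limma adjusted p = 0.0596), with -0.48 without scaling. In the authors' deposited table it has the lowest log2 fold change of the 4 members called lower there, -1.89, with an adjusted p of 8.79e-05. The gene rbm4.1 measured 4.46, 2.82 and 7.55 in uninjured and 14.0, 8.96 and 10.0 in regenerating libraries, without overlap (log2 change 1.07, SE 0.34, limma adjusted p = 0.0725). The most abundant, rbm8a, a subunit of the exon junction complex, measured 50.1 ± 23.7 and 58.2 ± 9.45 (SD, n = 3). The row rbm33b passed the filter although its mean normalised count is 0 in the authors' deposited table, so its level is a floor of the deposited values and not expression.

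The authors' own test also set few of these genes apart. Of the 105 members with a mean normalised count above 0, the authors' deposited table lists 6 past an adjusted p of 0.05, which is 5.71% against 9.46% of all 21504 such genes (4.84% higher and 4.62% lower). The 2 higher ones were snrpg and snrpe, and the 4 lower ones were mbnl3, rbm10, sf3b1 and rbm24a. Of the 6 members that passed in limma on scaled FPKM, 3 were among them: snrpg, snrpe and mbnl3. The authors' test and the one used here start from the same libraries and are not independent.

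**Figure D5:**
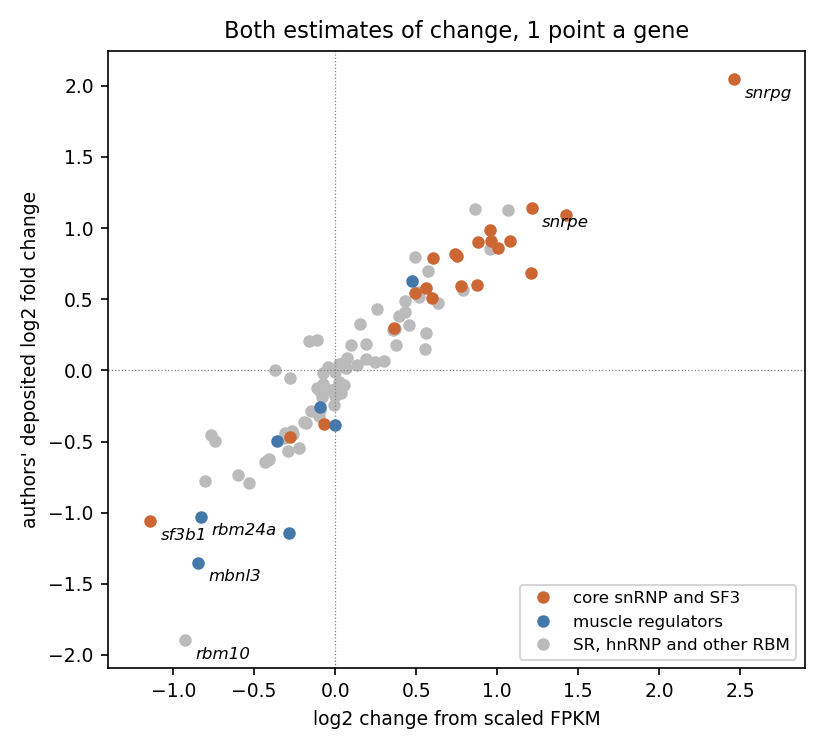
Each point is 1 of the 99 members tested, with the log2 change from scaled FPKM on the horizontal axis and the authors' deposited log2 fold change on the vertical axis. The gene snrpg lies at 2.46 and 2.05, and sf3b1, mbnl3, rbm10 and rbm24a lie at the lower left.

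Other genes of splicing were read from 7 lists with 237 symbols, of which 219 had a row and 205 were tested. In 4 of the 205 no uninjured library exceeded 1 FPKM. Of these 5 rose and 4 fell, and the median log2 change was 0.14, so their share of calls was below that of all genes. Without scaling 52 were higher and 2 lower, where 23.7% of all genes were higher. In the list of other snRNP and LSM proteins 3 of 49 rose and none fell, which is 6.12% against the 7.5% of all genes that were higher. They were snu13b, for a protein that binds the U4 RNA, phf5a, the small SF3B subunit that sits against the sf3b1 product at the branch point, and prpf4, a U4/U6 protein picked for mention once its value was known.

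The gene snu13b measured 6.16, 4.44 and 2.41 scaled FPKM in uninjured and 27.8, 16.0 and 22.6 in regenerating libraries. The groups were well apart, and it rose by 2.15 (SE 0.34, limma adjusted p = 0.00484). The gene phf5a measured 3.16, 4.84 and 4.03 in uninjured and 18.8, 9.76 and 14.0 in regenerating libraries, also with no overlap. It rose by 1.57 (SE 0.30, limma adjusted p = 0.0113). The change of its partner sf3b1, -1.14, did not pass (limma adjusted p = 0.0524). The gene prpf4 went from 1.69 ± 0.358 to 4.66 ± 0.445 (SD, n = 3; limma adjusted p = 0.0286).

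In the snRNP assembly list 1 of 12 rose (8.33%) and none fell, where 7.5% of all genes tested were higher. The riser was phax, which exports small nuclear RNA from the nucleus. It went from 1.84 ± 0.784 to 4.97 ± 0.739 scaled FPKM (SD, n = 3; limma adjusted p = 0.0422). In the list of the catalytic spliceosome 1 of 39 rose (2.56%) and none fell: bud31 went from 5.73 ± 1.85 to 12.2 ± 0.632 (log2 change 1.01, limma adjusted p = 0.0469). None of the 21 exon junction and export genes and none of the 17 SR kinases and partners passed in limma. At an unadjusted p below 0.05 the first of these had 3 higher and 1 lower, and the second 1 higher and 0 lower. By that rule 2215 of all 13319 genes tested were higher and 1346 lower.

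Among 28 tissue splicing regulators outside the members, 3 fell and none rose, which is 10.7% lower against 3.94% of all genes. Of the 3, esrp1 had no regenerating library above 1 FPKM and passed the filter through the uninjured libraries alone, which favours a lower call. The gene rbpms2b, named after its value was seen and known as a regulator of cardiomyocyte splicing in zebrafish, measured 137, 112 and 116 scaled FPKM in uninjured and 35.5, 36.5 and 80.0 in regenerating libraries. The groups did not overlap, with regenerating replicate 3 above the other regenerating libraries, and it fell by 1.34 (SE 0.32, limma adjusted p = 0.0268; -0.74 and adjusted p = 0.172 without scaling). Its relative rbpms was low and fell from 4.61 ± 1.94 to 0.622 ± 0.467 (SD, n = 3; log2 change -1.76, limma adjusted p = 0.0142). In regenerating replicate 3 rbpms was at 0.193 scaled FPKM, near the floor of the deposited values. The gene esrp1, which directs splicing in epithelial cells, fell from 2.77 ± 1.70 to 0.366 ± 0.208 (log2 change -1.38, limma adjusted p = 0.0252). In the list of other RNA-binding proteins 1 of 39 fell (2.56%, against 3.94% of all genes) and none rose. It was pcbp4, which binds C-rich RNA and went from 18.5 ± 3.49 to 7.19 ± 2.34 (log2 change -1.28, limma adjusted p = 0.0219; -0.71 and adjusted p = 0.159 without scaling).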

How the data were processed

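RNA-seq of 6 libraries was analysed, 3 uninjured and 3 regenerating, grouped by sample title. The submitters' processing notes name the build GRCz10, the aligner STAR 2.5.3a, the quantifier RSEM 1.3.0, R 3.3.3 and DESeq2. Per the file headers, the values that the authors deposited are log2 of FPKM. After undoing the log2, 100% lay within 0.001 of a 0.01 grid with a minimum of 0.1, so 0.1 was subtracted. The deposited table also holds the authors' own p-value, adjusted p and log2 fold change, gene length, and a mean normalised count, which is a signal over all libraries; it holds no read counts. Depth is therefore unknown.

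Genes above 1 FPKM in at least 3 libraries were kept (13319). Median ratios over the 8924 genes that exceeded 1 FPKM in every library gave the scaling factors. The limma package (3.58.1, R 4.3.3) fitted log2(scaled FPKM + 1) on group alone, with the empirical Bayes step following intensity. Fold changes on this scale understate those of low genes. Tests were two-sided, with Benjamini-Hochberg adjustment over all genes tested and a threshold of 0.05. The script was tested on simulated data. Alternatives changed the scaling, pseudocount, filter, trend, weights, block or libraries.

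Members, lists and scaling were chosen with earlier results of these data known. Named are every tested muscle regulator. In each other role the rule takes up to 4 called members, the smallest p in each direction and the most abundant row. It also takes a and b paralogs of opposite sign with a call, and in each list of other splicing genes up to 2 called genes and 1 in the other direction. Further genes named outside the rule are members given to complete their role group, and prpf4 and rbpms2b from the lists. All of these were chosen after their values were seen. For a list symbol on several rows, the most abundant row was used. Of 108 member identifiers, 107 were in the reference table of symbols. A row named CELF6 in capitals did not match the symbol rule. Protein and promoter sequences were not used here.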

Additional observations from a re-analysis of the deposited data

How the results depend on the processing

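Counts of higher and lower calls moved with most settings, and no member call held in all 16 alternatives. The 6 calls were each lost with no filter on low values, without regenerating replicate 1 and without regenerating replicate 2. Without scaling there were 28 members higher and 0 lower, with 17 core snRNP and SF3 rows, 1 muscle regulator, 3 SR, 5 hnRNP and 2 other RBM rows higher, 0 muscle regulators lower, and 52 pathway genes higher and 2 lower. Of all 13319 genes 23.7% were then higher and 1.52% lower. Upper-quartile scaling gave 3 members higher and 3 lower (1 core and 1 other RBM row lower, 0 hnRNP higher, 3 pathway genes higher). Over all 13319 genes it gave 860 higher and 627 lower. Trimmed-mean scaling and pseudocounts of 0.1 and 0.5 each gave 0 members and 0 muscle regulators lower, where 513, 490 and 514 of all 13319 genes were lower. With no filter on low values, over 25089 rows, 0 members of any role were higher or lower, and 2 pathway genes were higher and 0 lower. Of all those rows 479 were higher and 202 lower. The filter of 1 FPKM in all 6 libraries gave 2 members lower (1 core, 1 other RBM, 0 muscle) and 2 pathway genes lower. Of the 8924 genes it kept, 495 were lower. Array weights gave 3 members lower (1 core, 1 hnRNP) and 10 and 7 pathway genes higher and lower, and no trend gave 2 lower, 1 of them another RBM row. Over all 13319 genes array weights gave 1201 higher and 635 lower, and no trend gave 522 lower. The fit used throughout gave 999 higher and 525 lower. The cause of these shifts was not tested.

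Over the fits that each left out one library, members higher ran from 0 to 8 and lower from 0 to 1, core rows higher from 0 to 6 and lower from 0 to 1, hnRNP higher from 0 to 1, other RBM higher from 0 to 1, and muscle regulators lower were 0 to 0. Over all 13319 genes the higher calls ran from 367 to 1031 and the lower calls from 145 to 568. Pathway genes ran from 1 to 7 higher and 0 to 5 lower, and the difference in mitochondrial share from -26.9 to -16.8 percentage points.

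Replicate numbers are shared between groups, and deviations of same-numbered libraries correlated at -0.01, 0.00 and -0.06. With a single pair of libraries per number, these values cannot decide whether the numbers mark a pairing. With the replicate number as a block, 3 members were higher, 1 core row was lower, 0 muscle regulators were lower, 0 hnRNP rows and 2 pathway genes were higher. Over all 13319 genes 917 were then higher and 485 lower.

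Of the 99 members tested, 34 had a log2 change of opposite sign without scaling, where the median of all genes moved from 0.05 to 0.51. The number was 10 with upper-quartile and 5 with trimmed-mean scaling, and 30 turned when at least one of the libraries was left out. None of those under a scaling, or under any single left-out library, passed in either fit. Among the members chosen by the naming rule, those turned without scaling were celf1 at 0.22, celf3a at 0.075, hnrnpa1b at 0.51, mbnl1 at 0.49, mbnl2 at 0.60, srsf5a at 0.19 and srsf5b at 0.16. With trimmed-mean scaling mbnl2 was 0.012, and leaving out one library at a time gave celf3a -0.60 to 0.033, mbnl1 -0.22 to 0.0093, mbnl2 -0.32 to 0.18 and rbm8a -0.0086 to 0.65.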
